A study of Drosophila melanogaster with 13 samples.

Results

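Distal 3L is the outer part of the left arm of chromosome 3 of Drosophila melanogaster, from the telomeric end of the assembly to 8.5 Mb (dm6 coordinates). Its members were all sites of the 9 allele count tables at positions 1 to 8499999 of 3L, leaving out 3L:3187969-3202059, which holds the gene Hsp83 with 5 kb on each side. These were 147549 of the 1679136 sites listed in any table, beside 235298 sites on the remainder of 3L. The rule uses position alone, although the region was picked with earlier results of these data known. The annotation places 1366 genes in the region, of which 999 are protein-coding.

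The sites were called in Pool-seq libraries, in which the DNA of many flies is sequenced together and the share of reads with an allele estimates its frequency in the population. Each of the 12 pools held 100 whole adult females of 1 population raised at 25 °C, and flies had been selected for ectopic veins (EV), extra stretches of wing vein. D907 is an inbred line of wild origin, and Mix is an outbred population founded from the inbred lines D208, D437, D820 and D907, so D907 was 1 of its 4 founders. For D907, and for each of 2 experiments on Mix, there was an ancestral pool (P0), a control pool kept without selection, an assimilated pool and a nonassimilated pool. The assimilated flies had been heat-shocked as pupae and selected for EV, and were then selected further without heat shock. The nonassimilated flies derived from control flies and had been selected for EV without heat shock. Experiment 2 on Mix started from flies of a later generation of the same population. Each population was 1 pool, so every test below compares pools and not replicate populations. Heat shock cannot be told apart from the history of the single population that received it.

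Median depth at the sites of the region was between 76 and 90 reads per pool. At this depth, a complete loss of an allele could pass the test only from a P0 frequency of about 0.36 to 0.41 upwards, depending on the table. A table lists 1 derived pool beside its P0 pool, and sites absent from it were not tested. In experiment 1 on Mix, 90363 of 122460 sites (73.8%) were in all 3 tables, and in experiment 2 91768 of 117580 (78.0%). Sites listed for the control pool but not for a selected pool had a median P0 frequency of the alternative allele between 0.25 and 0.294, while sites in all 3 tables of an experiment had medians of 0.45 and 0.541. Counts of alleles that rose or fell are therefore counts over listed sites.

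Wing veins form where cells receive EGFR signalling above that of the intervein cells between them. The ligand Vein raises this signalling and Sprouty limits it, and their genes vn and sty both lie on distal 3L with the genes of the vein factors vvl and emc. The region also holds Cdc37, a partner of the chaperone Hsp90, and DnaJ-1, an Hsp40 protein induced by heat. Alleles on one chromosome are inherited together until recombination separates them, so in a population founded from a few inbred lines long stretches of a founder chromosome rise and fall as a block, and neighbouring sites are not independent.

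One site for each of 6 of these genes is shown, because the results by gene below are told through them. Each is the site in the gene that was called changed in most of the 4 selected Mix pools, so their changes against P0 are a description. Bases are the reference sequence (dm6, RefSeq) on the plus strand, 5′ to 3′, with the site's own reference base in capitals and 14 bases on each side. The tables do not give the base of the alternative allele.
emc, intron, chr3L:750484-750512: gctatttccttgagTgccattattttgac
Cdc37, intron, chr3L:1796142-1796170: tcgcaatgcttaatCcctaatttgtatcg
sty, intron, chr3L:3406143-3406171: tcgcgaattcggctTaagcgaaataaagc
DnaJ-1, coding, chr3L:5750902-5750930: atgaagacgatgtcAgctggcgtcttgtt
vn, intron, chr3L:5835568-5835596: tgtgtgagtgagtgTaagagcacacatgc
vvl, coding, chr3L:6790958-6790986: catcatcatgccgcTgccgcggcagctgc

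The inbred line D907 held almost no variation on distal 3L. Of 61245 sites listed in all 3 D907 tables, 59551 (97.2%) carried only the alternative allele, at a frequency of at least 0.98, in all 4 pools, and 470 (0.767%) segregated in P0 with a minor allele at 0.1 or more. The expected heterozygosity 2pq, which is 2 times the product of the allele frequencies, averaged 0.0036 per site in P0, 0.0036 in the control, 0.0038 in the assimilated and 0.0035 in the nonassimilated pool. The highest window of 100 kb, at 0.1 to 0.2 Mb, had a mean 2pq of 0.0604 in P0 and between 0.0613 and 0.0683 in the derived pools. The 4 D907 pools thus carried nearly the same alleles on distal 3L.

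A site was called changed where a two-sided Fisher's exact test on the read counts of the 2 pools gave a p-value below 1e-05 after Bonferroni's correction over the whole table. Against P0, 4 of 63103 sites of distal 3L were changed in the D907 control (0.00634%, with 0.0379% over the whole table), 8 of 63145 in the assimilated pool (0.0127%, with 4.38% over the whole table) and 6 of 63059 in the nonassimilated pool (0.00952%, with 1.84%). Assimilated and nonassimilated D907 differed at 9 of 61933 sites (1.12% over the whole table). Over these comparisons 18 sites were involved, and 2 of them were changed in more than 1 derived pool.

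The site changed in all 3 derived D907 pools was 3L:8023579, in a noncoding exon of the annotated transposon insertion FB{}nmo-FB-NOF inside nmo, which encodes the kinase Nemo. P0 had 58 reference and 36 alternative reads there, and the derived pools had only reference reads, 110 in the control, 112 in the assimilated and 111 in the nonassimilated pool. A coding site of sls, the gene of the muscle protein Sallimus, at 3L:2069541, had 155 reference and 41 alternative reads in P0 and 127 and 32 in the control. Both selected pools had 206 reference and 0 alternative reads at that site. The selected pools differed from each other at 9 sites, 3 of which follow. In Src64B, which encodes a non-receptor tyrosine kinase, the intron site 3L:4596509 had 6 reference and 20 alternative reads in the assimilated pool and 0 alternative reads in the other 3 pools. In bab1, a transcription factor gene of limb patterning, the intron site 3L:1043328 had 93 reference and 0 alternative reads in the assimilated pool and 50 and 35 in the nonassimilated pool. In Ubi-p63E, a polyubiquitin gene, the coding site 3L:3900662 had 80 reference and 0 alternative reads in the nonassimilated pool and 38 and 48 in the assimilated pool. These sites were picked after their values were seen.

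In Mix, by contrast, distal 3L lost most of its variation in all 4 selected pools. In experiment 1 the mean 2pq was 0.339 in P0, 0.299 in the control, 0.132 in the assimilated and 0.0528 in the nonassimilated pool, with SDs over 85 windows of 0.0235, 0.0315, 0.0825 and 0.0573. The selected pools were thus lower than P0 by 61.1% and 84.4%, and the control by 11.6%. In experiment 2 the mean 2pq was 0.314 in P0, 0.249 in the control, 0.0448 in the assimilated and 0.0979 in the nonassimilated pool, with SDs over windows of 0.0316, 0.0695, 0.0665 and 0.124. Here the assimilated pool was the lower, by 85.7% from P0 against 68.8% in the nonassimilated pool and 20.8% in the control. The order of the selected pools was therefore opposite in the 2 experiments.

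**Figure D1:**
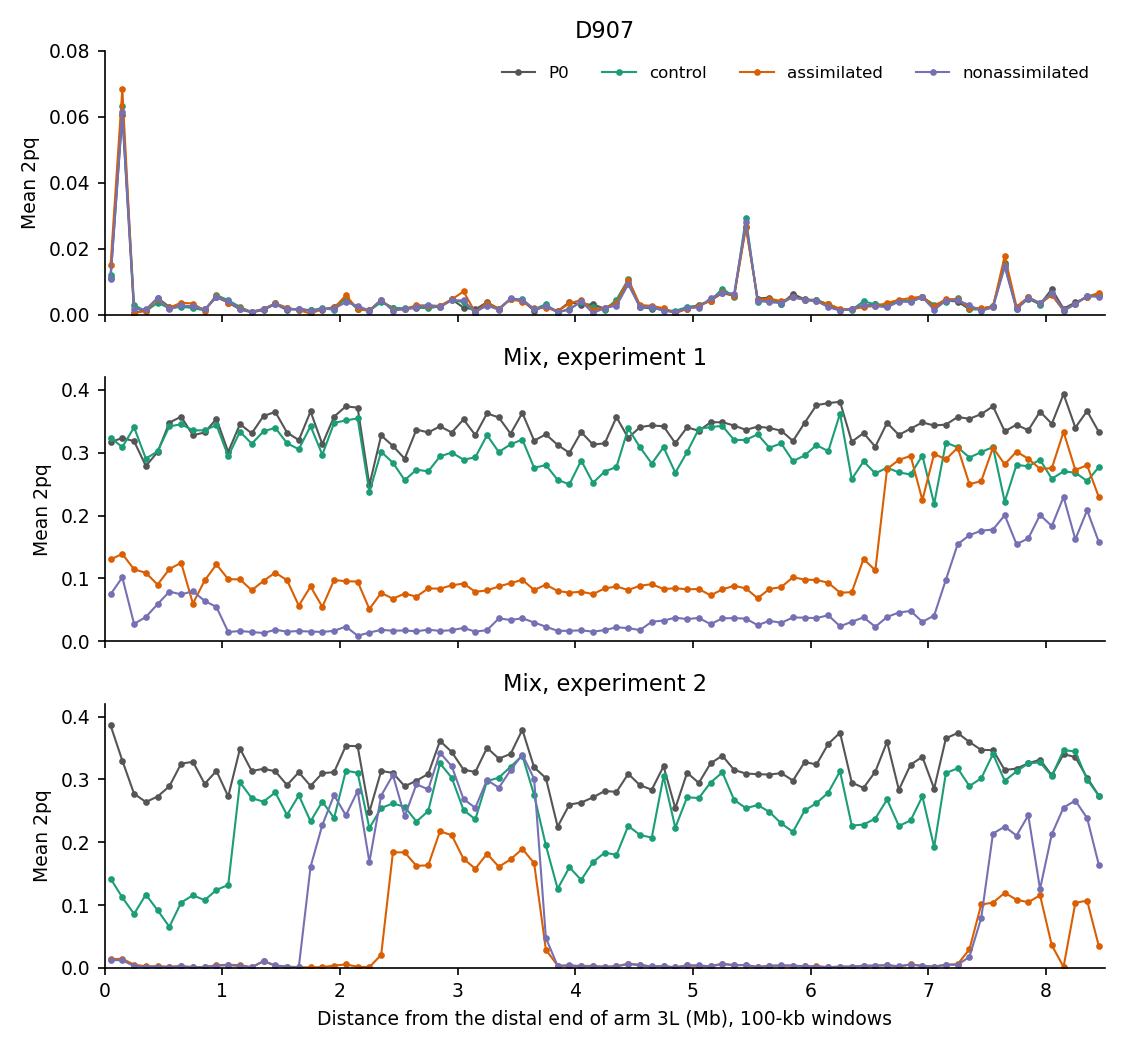
Mean expected heterozygosity (2pq per site) along distal 3L in windows of 100 kb, with the position in Mb on the x axis and 1 line per pool. The top panel shows D907, on a smaller y scale, and below it is 1 panel for each Mix experiment. Over 0 to 6.5 Mb of experiment 1 the mean was 0.0873 in the assimilated and 0.0286 in the nonassimilated pool, and in experiment 2 both lie near 0 over 0 to 1.7 Mb and 3.8 to 7.3 Mb.

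The control pool of experiment 2 also lost variation at the telomeric end. Over the first Mb its mean 2pq was 0.104, against 0.302 in P0 and 0.332 in the control of experiment 1. Its lowest window had a mean 2pq of 0.0653, and 57.6% of the segregating sites in it were fixed.

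Fixation was counted where the minor allele was at 0.1 or more in P0, and a site counted as fixed below or at 0.02 and from 0.98 upwards. In experiment 1, 5.09% of 73070 such sites were fixed in the control (95% Wilson interval 4.94 to 5.25%), 41.5% in the assimilated pool (41.1 to 41.8%) and 60.8% in the nonassimilated pool (60.4 to 61.1%). In experiment 2, 8577 of 71500 sites were fixed in the control (11.8 to 12.2%), 80.4% in the assimilated pool (80.1 to 80.7%) and 73.5% in the nonassimilated pool (73.1 to 73.8%). These intervals cover the counting of sites only, and linked sites make them too narrow. Windows with at least 90% of such sites fixed numbered 0 and 1 of 85 in the selected pools of experiment 1, and 60 and 53 of 85 in the assimilated and nonassimilated pools of experiment 2.

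All but 1 of the fixed windows of the assimilated pool of experiment 2, and all of those of the nonassimilated pool, lay in unbroken runs. In the assimilated pool 1 run covered 0 to 2.4 Mb (24 windows, each with 91.8 to 99.6% of sites fixed) and another 3.8 to 7.3 Mb (35 windows, 96.4 to 100%). In the nonassimilated pool the runs covered 0 to 1.7 Mb (17 windows, 93.8 to 99.6%) and 3.8 to 7.4 Mb (36 windows, 95.5 to 100%). The second run was thus nearly the same stretch in both pools, and the first ended 0.7 Mb earlier in the nonassimilated pool. Between the runs, over 2.4 to 3.7 Mb, the windows of the assimilated pool had 17.3 to 35.5% and those of the nonassimilated pool 15.6 to 29.7% of sites fixed. sty lies in this gap. The boundaries were read from the values, so they are a description of these pools.

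**Figure D2:**
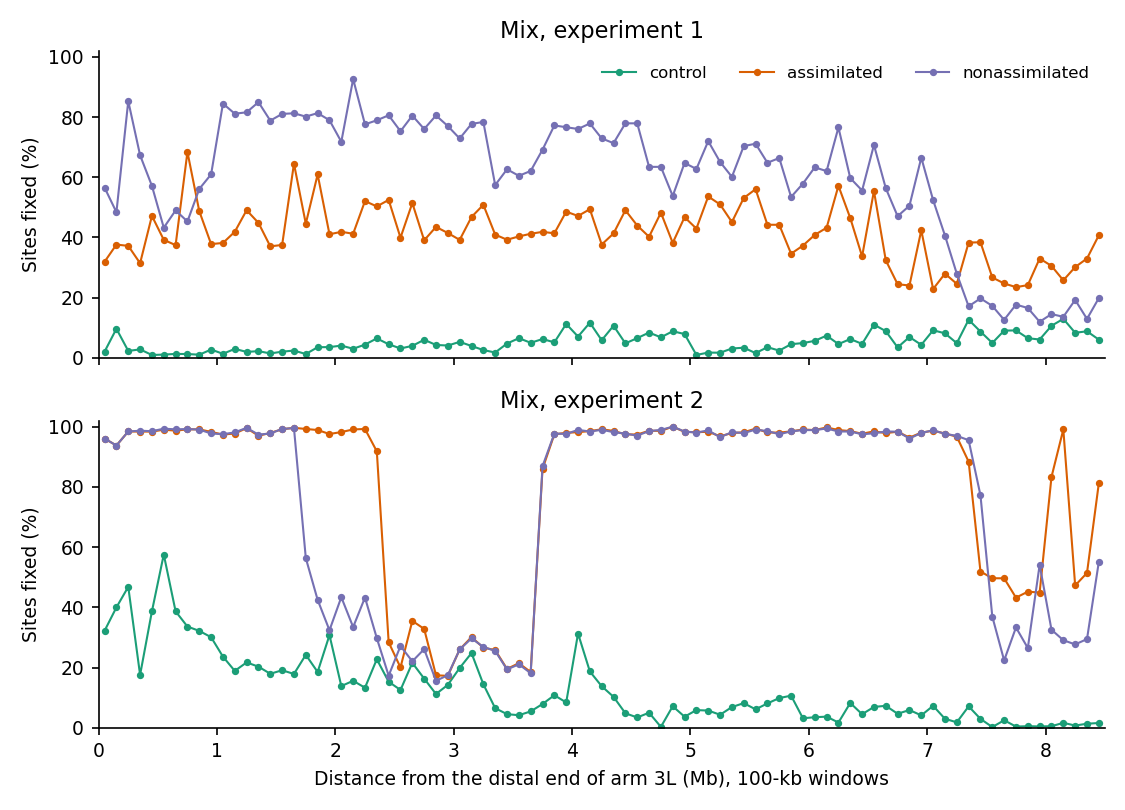
Share of segregating sites fixed, in percent, in windows of 100 kb along distal 3L (position in Mb), 1 panel per Mix experiment and 1 line per derived pool, at sites whose minor allele was at 0.1 or more in P0. In experiment 2 both selected pools lie near 100% over 3.8 to 7.3 Mb, with a gap over 2.4 to 3.7 Mb, whereas in experiment 1 the assimilated pool has 31.4 to 68.4% of sites fixed in the windows up to 6.5 Mb.

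The founder D907 could be followed in experiment 1. D907 alleles were taken as alternative alleles at 0.98 or more in the D907 P0 pool and between 0.05 and 0.5 in Mix P0 of experiment 1, at sites in all 3 tables, which gave 14825 sites. The other founders can carry the same alleles. The P0 frequency chose these sites, so the level in P0 is a description, and an allele at a low P0 frequency can pass the test by rising more easily than by falling.

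D907 alleles became the common alleles of distal 3L in both selected pools of experiment 1 and rarer in the control. Their mean frequency was 0.375 in P0 (Wilson interval for 200 chromosomes 0.311 to 0.444), 0.155 in the control (0.111 to 0.212), 0.796 in the assimilated pool (0.734 to 0.845) and 0.936 in the nonassimilated pool (0.892 to 0.962). The intervals of the control, assimilated and nonassimilated pools do not overlap. That of P0 is not compared, since the P0 frequency chose the sites. All intervals allow for the flies drawn into a pool and leave out drift between populations. Fixed for the D907 allele were 4544 sites (30.7%) in the nonassimilated and 142 in the assimilated pool, and the control had lost the D907 allele at 1410. Called changed against P0 were 614 sites in the control (4.14%, with 0.75% over all sites of the table), all of which fell, 7531 in the assimilated pool (50.8%, with 14.2% over the table) and 12276 in the nonassimilated one (82.8%, with 21.4%), all of which rose. Assimilated and nonassimilated pools differed at 875 of these sites (5.90%, with 23.9% over the table), and at 874 of them the D907 allele was rarer in the assimilated pool.

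Along the region the D907 alleles kept level plateaus with sharp steps. In the assimilated pool the window means were between 0.850 and 0.911 from 0.3 to 6.5 Mb, 0.740 in the window at 6.5 Mb and between 0.459 and 0.533 from 6.6 to 8.5 Mb. In the nonassimilated pool they were between 0.912 and 0.991 from 0.3 to 7.1 Mb, 0.849 in the next window and between 0.752 and 0.795 from 7.2 to 8.5 Mb. The 2 pools therefore stepped down at different places, about 0.6 Mb apart. In the control the means were between 0.227 and 0.299 up to 2.5 Mb and between 0.0643 and 0.155 from 2.6 Mb on, while those of P0 were between 0.326 and 0.417 over the whole length.

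**Figure D3:**
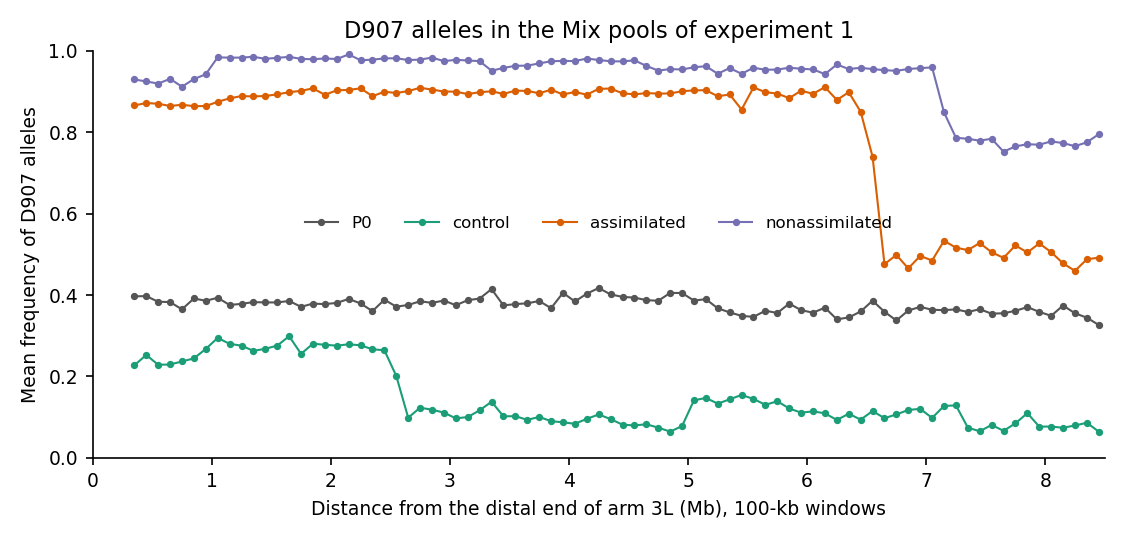
Mean frequency of D907 alleles in windows of 100 kb along distal 3L (position in Mb) in the 4 Mix pools of experiment 1, over 14825 sites. The nonassimilated pool lies above 0.9 up to 7.1 Mb, the assimilated pool above 0.85 up to 6.5 Mb and near 0.5 beyond 6.6 Mb, P0 between 0.326 and 0.417, and the control below P0.

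The same measure differed along the genome. On the remainder of 3L the mean D907 frequency in P0, control, assimilated and nonassimilated pools was 0.343, 0.236, 0.357 and 0.545, and on 3R it was 0.354, 0.315, 0.608 and 0.787. On X it was 0.415, 0.440, 0.0879 and 0.107. In both selected pools of experiment 1 the mean of distal 3L was above those of the remainder of 3L, 2L, 2R, 3R and X, as a description without a test. In experiment 2 only 4081 of the 14825 sites were in all 3 tables, and over these the means were 0.280, 0.246, 0.278 and 0.231. Its control alone listed 5589, and the frequency at unlisted sites is not known. Sites missing for a selected pool had lower P0 frequencies of the alternative allele, so these means may be too high. Within that subset the segment means of the assimilated pool ran from 0.0252 at 4 to 5 Mb, where the nonassimilated pool was at 0.0239, to 0.565 at 2 to 3 Mb and 0.608 beyond 8 Mb, where the nonassimilated pool was at 0.464 and 0.154. Of 4317 D907 alleles listed for the assimilated pool, 782 were called changed against P0 (18.1%, with 26.2% over the table), and 734 of these rose and 48 fell. In the nonassimilated pool 240 of 4256 were called (5.64%, with 20.4%), and 231 of these rose and 9 fell. With uncalled alleles counted too, most were lower than in P0. In the assimilated pool 2727 were lower and 1590 higher, and in the nonassimilated pool 2939 were lower and 868 higher.

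Site by site, few sites passed the test in the control pools and many in the selected Mix pools. Few calls do not mean little change. In the control of experiment 1, 14388 of the 14825 D907 alleles were lower than in P0, and 614 of them were called. In experiment 1, 853 of 118353 tested sites of distal 3L were changed in the control (0.721%, with 0.75% over the whole table), 16636 of 104675 in the assimilated pool (15.9%, with 14.2% over the whole table) and 25024 of 96449 in the nonassimilated pool (25.9%, with 21.4% over the whole table). In experiment 2 the counts were 71 of 114349 in the control (0.0621%, with 0.356% over the whole table), 16955 of 95012 in the assimilated pool (17.8%, with 26.2% over the whole table) and 12989 of 97853 in the nonassimilated pool (13.3%, with 20.4% over the whole table). The shares of the selected pools were thus somewhat above the whole table in experiment 1 and below it in experiment 2, and those of both controls were below it. The remainder of 3L had 4.35% and 11.8% changed sites in the selected pools of experiment 1, and 21.7% and 10.2% in those of experiment 2. Where reads were scaled to the effective number that 200 chromosomes allow, the counts for the selected pools in the order above were 3899, 14278, 5589 and 3499, while tests against the control instead of P0 gave 35372, 42656, 10233 and 8632.

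The median size of a called change lay between 0.462 and 0.556 in the selected pools. The alternative allele rose at 11250 and fell at 5386 changed sites of the assimilated pool of experiment 1, and rose at 17608 and fell at 7416 in the nonassimilated pool. In experiment 2 it rose at 13209 and fell at 3746, and rose at 10303 and fell at 2686. Changed sites were spread over nearly the whole region, since at least 1 lay in 84 and 85 of 85 windows in the selected pools of experiment 1 and in 85 and 76 in experiment 2. In the controls 68 and 23 windows did.

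**Figure D4:**
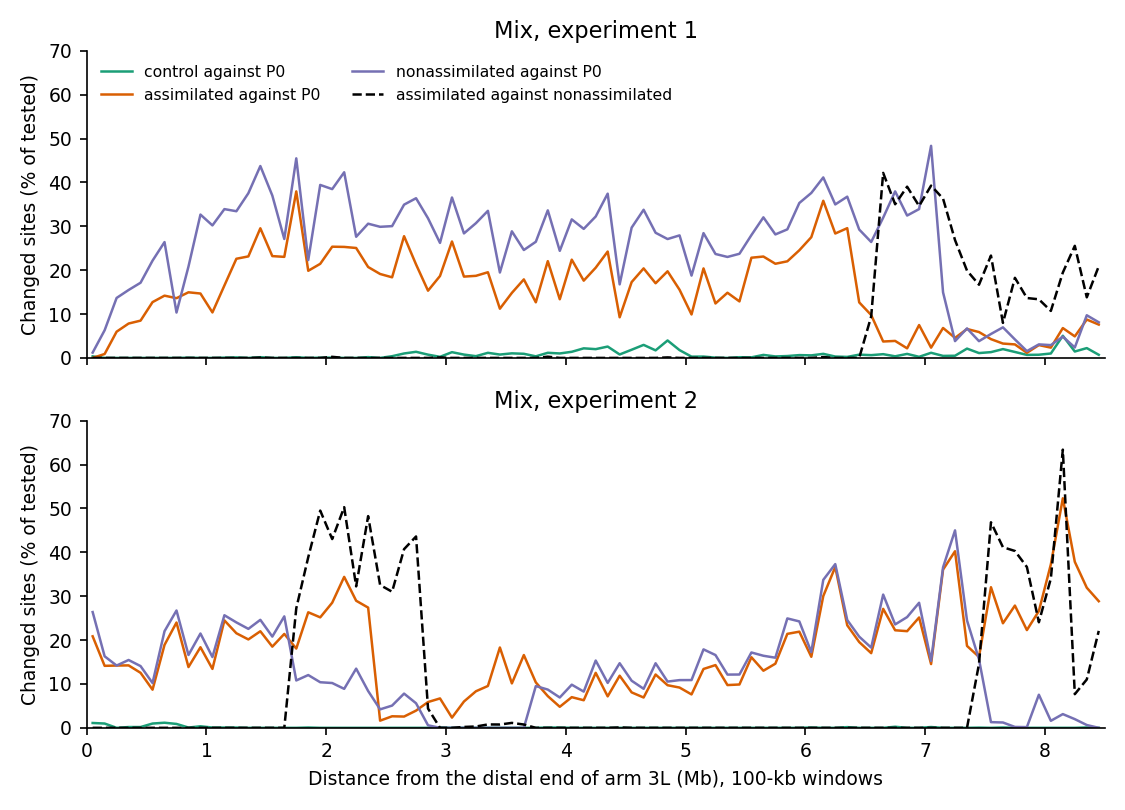
Percent of tested sites called changed in windows of 100 kb along distal 3L (position in Mb) for the Mix pools of both experiments against P0 and for the assimilated pool against the nonassimilated pool. Controls stay near 0, and the comparison of the selected pools is near 0 up to 6.5 Mb in experiment 1 and over 0 to 1.7 Mb and 3.7 to 7.3 Mb in experiment 2.

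The windows with the largest share of changed sites lay at different places in the 2 experiments. In experiment 1 the window at 1.7 to 1.8 Mb, which holds Cdc37, had 37.9% changed sites in the assimilated and 45.5% in the nonassimilated pool. The nonassimilated pool had 48.3% at 7.0 to 7.1 Mb, the window of Mp, a collagen gene, and 43.7% at 1.4 to 1.5 Mb, the window of Ptp61F, a phosphatase gene, and stet. The assimilated pool had 35.8% at 6.1 to 6.2 Mb, around the ETS factor gene Ets65A. In experiment 2 the window of Sarm, an axon degeneration gene, at 8.1 to 8.2 Mb, had 52.3% changed sites in the assimilated pool. The window at 7.2 to 7.3 Mb, around unc-13-4A, had 40.2% in the assimilated and 45.0% in the nonassimilated pool, and that of LanA, the laminin alpha chain gene, had 37.3% in the nonassimilated pool. In the control of experiment 2 the leading window, with 15 of 1290 sites changed (1.16%), holds the microRNA gene ban. None of these sites lay in the host transcript of ban, which had 0 of 97 changed in that pool.

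Assimilated and nonassimilated pools share their P0, so they were compared directly. On distal 3L they differed at 5307 of 92801 sites in experiment 1 (5.72%, with 23.9% over the whole table) and at 8737 of 92774 in experiment 2 (9.42%, with 18.8% over the whole table). The remainder of 3L had 21.5% and 24.9%. The share of differing sites was thus below that of the whole table in both experiments. Under effective counts the counts were 1810 and 5210.

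The differences were gathered in few blocks, whose limits were read from the values. In experiment 1, from 0 to 6.5 Mb, 12 of 70463 sites differed at the threshold, although 20535 (29.1%) had an unadjusted p-value below 0.05. Between 6.5 and 7.0 Mb, where the D907 alleles had dropped in the assimilated pool only, 1795 of 5459 sites (32.9%) differed, and beyond 7.0 Mb 3500 of 16879 (20.7%). In experiment 2, 0 of 16865 sites differed from 0 to 1.7 Mb by Fisher's exact test, with 35 at an unadjusted p-value below 0.05. Over 1.7 to 2.4 Mb, where the assimilated pool was fixed at 97.7% of segregating sites and the nonassimilated pool at 39.4%, 3245 of 7812 (41.5%) differed. Over 2.4 to 3.7 Mb, where both pools stayed variable, 1851 of 15431 differed. Over 3.7 to 7.3 Mb 1 of 39573 sites differed, with 200 at an unadjusted p-value below 0.05. Over 7.3 to 8.0 Mb 2473 of 8500 (29.1%) differed. From 8.0 Mb on, 1167 of 4593 (25.4%) differed, and 70.3% of segregating sites were fixed in the assimilated against 34.3% in the nonassimilated pool.

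Where both selected pools of an experiment were fixed, they were nearly always fixed for the same allele. In experiment 1, 24731 sites were fixed in both, 5 of them for opposite alleles, and in experiment 2 50100 were fixed in both, 160 for opposite alleles. Between the experiments the alleles differed more often. Of 45648 segregating sites common to both experiments, 21654 were fixed in both assimilated pools, and at 3840 of these (17.7%) the alleles were opposite. In the nonassimilated pools 25265 were fixed in both, 7585 of them for opposite alleles. These are descriptions of linked sites without a test.

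Across the experiments, a Cochran-Mantel-Haenszel test with the experiment as stratum called 290 of 93495 sites of distal 3L in the controls (1.18% over the whole table), 14372 of 74703 in the assimilated pools (19.2%, with 25.4% over the whole table) and 12116 of 68365 in the nonassimilated pools (17.7%, with 23.6% over the whole table). This test calls a site that moved strongly in 1 experiment as well as a site that moved in both. At the same sites, experiment 2 alone gave 59 calls in the controls, and experiment 1 alone gave 8715 in the assimilated pools. Sites called in each experiment alone moved the same way at 1270 and opposite ways at 233 in the assimilated pools, and the same way at 1314 and opposite ways at 374 in the nonassimilated pools. The directions were not counted over the whole genome.

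A direct test of the difference between the experiments, on the log odds ratios of derived against P0, called 3 sites in the controls (0.00635% over the whole table), 1030 of 74703 in the assimilated pools (1.38%, with 0.644% over the whole table) and 42 of 68365 in the nonassimilated pools (0.245% over the whole table). At 1029 of the 1030 sites, at all 42 and at all 3 the alternative allele moved in opposite directions. At this depth a site can hardly pass the threshold otherwise, so the direction is no separate result. In the assimilated pools 347 lay at 2 to 3 Mb and 678 at 3 to 4 Mb, the stretch that stayed variable in experiment 2, and in the nonassimilated pools 32 of 42 lay beyond 8 Mb. The test has little power where a pool has no reads of an allele, so these counts and places do not show where the experiments differed most. In the nonassimilated pools 374 sites had been called in opposite directions in each experiment alone, more than the 42 called here. With effective counts the test called 0, 80 and 0 sites.

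The 3 control sites lay in introns of Tet, which encodes a DNA and RNA oxidase, of Cht7, a chitinase gene, and of CG42540. At Tet (3L:2829075) the frequency went from 0.543 in P0 to 0.0847 in the control of experiment 1 and from 0.495 to 0.705 in experiment 2. At Cht7 (3L:3102741) it went from 0.519 to 0.935 and from 0.519 to 0.244. At CG42540 (3L:4587032) it went from 0.716 to 0.219 and from 0.276 to 0.897. Depth was low there, with 25 reference and 7 alternative reads in the control of experiment 1 and 21 and 8 in P0 of experiment 2. Against P0, Tet and Cht7 were called changed in experiment 1 only, and CG42540 in neither experiment. All 3 moved in opposite directions, which the threshold of the test nearly requires at this depth.

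Among the genes, vn, at 3L:5813338-5845664, encodes the neuregulin-like ligand Vein. Changed were 48 of 402 (11.9%) and 83 of 379 (21.9%) sites in the assimilated and nonassimilated pools of experiment 1. In experiment 2 they were 101 of 332 (30.4%) and 110 of 334 (32.9%). The controls had 1 of 427 and 0 of 419, and 0 sites of vn differed between the selected pools in either experiment. Over all tested sites of distal 3L the shares in these 4 pools were 15.9%, 25.9%, 17.8% and 13.3%. The share of vn was thus below the region in experiment 1 and above it in experiment 2. The counts of the genes that follow are to be read beside the same shares of the region. At the printed intron site the alternative allele was at 0.429 in P0 and 0.513 in the control of experiment 1, and at 0.538 and 0.356 in experiment 2. All 4 selected pools had 0 alternative reads there, beside 106 and 95 reference reads in experiment 1 and 74 and 96 in experiment 2. It was the one printed site called in all 4, with adjusted p-values by Fisher's exact test between 5.63e-13 and 1.18e-09.

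vvl, at 3L:6790158-6794941, encodes a POU domain transcription factor needed for wing veins. In experiment 1 the nonassimilated pool had 28 of 33 sites changed and the assimilated pool 0 of 31, and 13 of 31 sites differed between them. At the printed coding site the alternative allele was at 0.315 in P0, 0.112 in the control, 0.485 in the assimilated and 0.981 in the nonassimilated pool. The nonassimilated pool was above the other 3, with an adjusted p-value by Fisher's exact test against P0 of 2.30e-21, and it also differed from the assimilated pool. This gene lies beyond the step in D907 alleles of the assimilated pool, and D907 carried only the alternative allele at the site. In experiment 2 the site was not in the tables, and 0 of 14 tested sites of vvl were changed in any pool, while all 14 segregating sites were fixed in both selected pools.

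emc, at 3L:749400-753492, encodes a helix-loop-helix protein that antagonises bHLH factors. In experiment 1, 15 of 62 sites (24.2%) were changed in the assimilated and 1 of 65 (1.54%) in the nonassimilated pool. In experiment 2, 8 of 33 (24.2%) and 9 of 33 (27.3%) were changed, with 3 of 58 in the control. At the printed intron site the experiments ended on opposite alleles. The alternative allele went from 0.564 in P0 to 1 in the assimilated and 0.963 in the nonassimilated pool of experiment 1, both called, and from 0.355 to 0 in both selected pools of experiment 2, not called. The difference between experiments did not pass its test at this site, but pools without reads of an allele leave that test little power, so it decides nothing here. The control of experiment 2 was at 0.102.

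sty, at 3L:3401153-3424935, encodes Sprouty, an intracellular inhibitor of receptor tyrosine kinase signalling. In experiment 1, 55 of 318 (17.3%) and 69 of 260 (26.5%) sites were changed in the assimilated and nonassimilated pools. In experiment 2, 62 of 330 (18.8%) and 0 of 339 were changed. In experiment 2 the 2 pools differed at 5 of 327 sites. At the printed site the alternative allele was at 0.608 in P0 and 1 in both selected pools of experiment 1. In experiment 2 it was at 0.385 in P0, 0.362 in the control, 0.874 in the assimilated and 0.670 in the nonassimilated pool, and neither the nonassimilated pool against P0 nor the selected pools against each other passed the test. With 17.9% and 17.2% of its segregating sites fixed in the selected pools of experiment 2, sty stayed variable where vn was fixed at 99.1% in both.

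**Figure D5:**
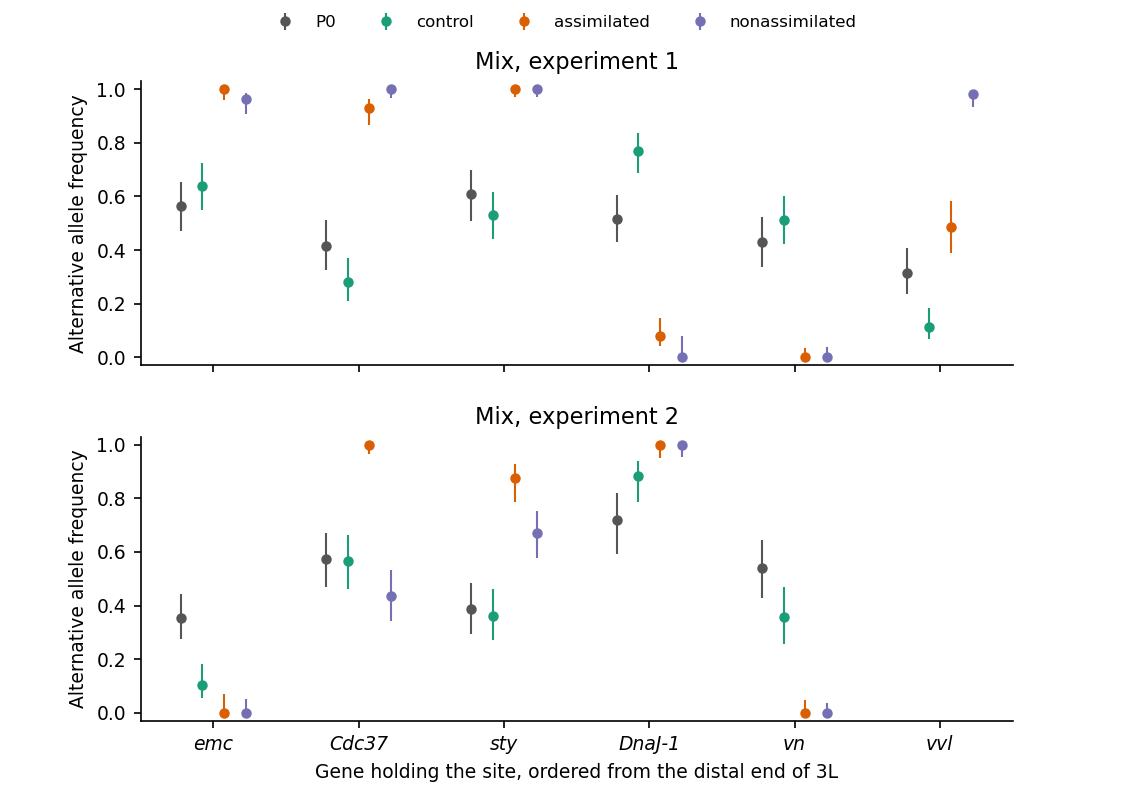
Frequency of the alternative allele (0 to 1) at the 6 printed sites in P0, control, assimilated and nonassimilated pools, 1 panel per Mix experiment, with bars for the 95% Wilson interval of the reads. The vn site is at 0 in all 4 selected pools, the emc and DnaJ-1 sites end at opposite sides in the 2 experiments, and the vvl site has no values in experiment 2.

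Cdc37, at 3L:1795392-1797307, encodes the co-chaperone that brings kinases to Hsp90. Changed were 6 of 26 (23.1%) and 6 of 23 (26.1%) sites in the assimilated and nonassimilated pools of experiment 1. In experiment 2 they were 6 of 21 (28.6%) and 2 of 21 (9.52%), and the selected pools differed at 9 of 21. At the printed intron site the alternative allele was at 0.415 in P0 and 0.282 in the control of experiment 1, and at 0.929 and 1 in its selected pools. In experiment 2 it was at 0.573 in P0, 0.565 in the control, 1 in the assimilated and 0.436 in the nonassimilated pool. In experiment 2 only the assimilated pool changed past the threshold, and its difference from the nonassimilated pool was called.

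DnaJ-1, at 3L:5750029-5752189, encodes a heat-inducible Hsp40 co-chaperone. Changed were 5 of 12 (41.7%) and 3 of 10 (30%) sites in the assimilated and nonassimilated pools of experiment 1, and 1 of 15 (6.67%) in each of experiment 2. At the printed coding site the alternative allele went from 0.517 in P0 to 0.0811 in the assimilated and 0 in the nonassimilated pool of experiment 1, both called, while the control was at 0.769. In experiment 2 it went from 0.719 to 1 in both selected pools, with adjusted p-values by Fisher's exact test of 0.582 and 0.163. The difference between the experiments did not pass its test at this site, where pools without reads of an allele again leave that test little power.

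ban, a microRNA gene that promotes tissue growth, at 3L:642208-642288, had 0 listed sites. Its host transcript lncRNA:CR43334, at 3L:628435-643900, had 10 of 97 and 14 of 97 changed sites in the selected pools of experiment 1, and 10 of 75 and 8 of 75 in experiment 2. The controls had 0 of 104 and 0 of 97.

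The wider lists gave 27 genes of distal 3L, 10 of vein formation and receptor tyrosine kinase signalling, 13 of growth and patterning, 2 of chaperones and 2 of chromatin, and 26 of them held listed sites. Of the 10 vein genes, 9 and 10 held changed sites in the assimilated and nonassimilated pools of experiment 1, and 8 in each of experiment 2. Such counts of genes, here and for growth, do not set the lists apart. At least 1 changed site lay in 84, 85, 85 and 76 of 85 windows in these pools, and the share over all genes is not given. Over their sites 23.7% and 38.2% were changed in experiment 1 and 20.7% and 21.6% in experiment 2, with gene medians of 23.1%, 37.9%, 20.5% and 21.1%. Beside this stand 15.9%, 25.9%, 17.8% and 13.3% over the whole region. Ptp61F alone gave 634 and 900 of the 1010 and 1498 changed sites in experiment 1, and 446 and 517 of the 746 and 790 in experiment 2, and it contains other genes of the list, ru among them, whose sites are counted again. Of the 13 growth genes, 10 and 11 held changed sites in experiment 1 and 11 in each selected pool of experiment 2, with 12.2%, 25.2%, 17.2% and 17.0% of sites changed.

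Other list genes were spread along the region, and their shares differed widely. Those below stood out in at least 1 comparison and are not typical of the lists. Pdk1, a kinase gene, had 0 of 23 and 1 of 23 changed sites in the selected pools of experiment 1, and 1 of 22 in each of experiment 2. Over the whole region the selected pools differed from each other at 5.72% of sites in experiment 1 and 9.42% in experiment 2. dos, an adaptor of receptor tyrosine kinase signalling at 3L:2589414-2595590, had 27 and 31 of 48 sites changed in the selected pools of experiment 1, and 0 of 32 and 1 of 33 in experiment 2. LanA, at 3L:6203831-6218022, had 55 of 100, 59 of 98, 46 of 97 and 47 of 97 changed sites, and 0 sites differed between selected pools. melt, a gene of growth and metabolism at 3L:7134516-7143074, had 62 of 108 sites different between the selected pools of experiment 1 and 0 of 119 in experiment 2. pbl, a gene of cell division at 3L:7896109-7911954, had 56 of 234 and 72 of 228 sites different between them. msl-3, of the dosage compensation complex, had 8 of 15 in experiment 1 and 0 of 18 in experiment 2. melt, msl-3 and pbl all lie beyond the step in D907 alleles of the assimilated pool of experiment 1.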

How the data were processed

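Allele counts of 12 Pool-seq libraries were analysed. By the submitters' processing notes and methods, reads were aligned to dm6 with BWA and sites called with GATK (versions not given in the sources used here). The authors deposited, per derived pool, a table of raw read counts of the reference and the alternative allele beside P0. Its remaining columns hold the authors' Fisher p-values, ranks and q-values and were not used. Allele bases are not given, so SNPs and InDels were pooled.

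Allele frequency was the alternative count divided by the sum. Fisher's exact, Cochran-Mantel-Haenszel and log odds ratio tests (0.5 added to each count) were run over whole tables, with Bonferroni's correction and a threshold of 1e-05, and the code was tested on simulated data. The experiment number pairs derived and P0 pools, since each Mix experiment has its own P0. 2pq and fixation were averaged in windows of 100 kb, and fixation in windows with at least 20 such sites. Sites were placed on the Ensembl gene annotation of the dm6 build. Read counts are not independent molecules, and intervals cover counting error only.

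Genes in full were vn, vvl, emc, sty, ban, Cdc37 and DnaJ-1 (1 further gene is not reported here), other list genes were described by counts, and windows were named as the 3 with the largest changed share among those with at least 50 tested sites. D907 sites, blocks and control sites were chosen after their values were seen. Members, lists and rules were chosen with earlier results of these data known. Analyses used Python 3.11.15, NumPy 2.4.6, SciPy 1.17.1 and pandas 2.3.3. Alternatives were another threshold, at least 30 reads, effective counts, the control as reference, other fixation limits, window sizes of 50 and 250 kb and single experiments.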

Additional observations from a re-analysis of the deposited data

Results flagged for a closer look

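The test of the difference between Mix experiments singled out sites where the same comparison with P0 gave unlike results in experiments 1 and 2. It did so at 3 sites of distal 3L in the controls, at 1030 in the assimilated pools and at 42 in the nonassimilated pools. All but 1 of the 1030 moved in opposite directions, and 678 of them lay at 3 to 4 Mb. At this depth the threshold nearly requires opposite moves. The test also has little power where a pool has no reads of an allele, so the places are not a separate result. With effective counts the test gave 0, 80 and 0 sites.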

How the results depend on the processing

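Of 121 alternative values, 87 stayed within 1.5 times the count, or within the spread over windows for a level, and 34 did not. Among the 87 are 3 that repeat the main test with the experiment as stratum and could not differ. All 24 alternatives for mean 2pq and all 12 for windows with at least 90% of sites fixed were among the 87. A threshold of 1e-08 gave 230 changed sites in the Mix control, 7456 in the assimilated pool and 3004 between the selected pools of experiment 1, and 15, 8553 and 6192 in the control, assimilated and nonassimilated pools of experiment 2. In D907 it gave 4 and 3 for the selected pools and 5 between them. Effective counts for 200 chromosomes gave 2, 3 and 2 in the D907 control, assimilated and nonassimilated pools and 3 between the selected pools. In Mix they gave 68, 3899 and 14278 in experiment 1, 8, 5589 and 3499 in experiment 2, 1810 and 5210 between selected pools, and 0, 80 and 0 between experiments. With the control in place of P0 the selected pools had 35372 and 42656 changed sites in experiment 1, and 10233 and 8632 in experiment 2. For the comparison over both experiments, no replicate block (counts summed) gave 388, 17073 and 13870 sites in control, assimilated and nonassimilated pools, all within 1.5 times of the main counts. A single experiment gave 59 to 389, 8715 to 13074 and 8764 to 12748. With fixation at 0.05 or 0.95, 12.8% of sites were fixed in nonassimilated D907 and 75.8% in the nonassimilated pool of experiment 1. A P0 minor allele frequency of at least 0.2 gave 3.83% fixed in the control of experiment 2. D907 alleles at 0.15 to 0.35 in P0 had a P0 mean of 0.307, which their own selection lowers. Except for fewer or scaled reads, the cause of these shifts was not tested. The deposited q-value as a threshold was not run, since the authors' test columns were not used. Depth of 76 to 90 reads limits the calls to large changes.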

Other observations

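Sites were also grouped by annotation. In experiment 1, coding sites of distal 3L were changed more often than intergenic sites, with 22.6% against 13.7% in the assimilated and 30.8% against 24.7% in the nonassimilated pool. In experiment 2 the order was the other way, with 18.0% against 20.3% and 13.4% against 15.9%. Introns had 15.2% and 25.4% in experiment 1 and 16.8% and 12.1% in experiment 2. Sites of 1 founder block move together, so these shares are a description of linked sites without a test.

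The 2 Mix P0 pools themselves differed. Over 64633 sites listed in all 6 Mix tables, the median absolute difference of the allele frequency was 0.108, and the mean 2pq was 0.317 in experiment 1 and 0.299 in experiment 2.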
